A study of Rattus norvegicus with 43 samples.

Results

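The zinc finger protein genes described here are the genes whose symbol is Zfp or Znf followed by a number, with Zfp36 left out because it codes for a zinc finger of another class that binds messenger RNA. On the array, 136 such symbols had a probe set of their own. The 122 whose median over all arrays reached 4.75 on the log2 scale were kept, out of 10929 genes tested, and all 122 carry the name Zfp. RNA came from the distal colon of Sprague Dawley rats aged 11 weeks, each rat giving 1 of the 43 Affymetrix arrays. A control diet (CON) was fed to 5 of the rats. The others ate Western diets that differed in their starch. Maize starch was low in amylose (LAMS, 7 rats), high in amylose (HAMS, 8 rats), or high in amylose and butyrylated (HAMSB, 9 rats), and wheat was low (LAW, 6 rats) or high in amylose (HAW, 8 rats). The labels give these diets as codes, and their reading comes from knowledge of the study, not from the labels. High-amylose starch escapes digestion in the small intestine and is fermented to short-chain fatty acids in the large bowel, and butyrylated starch carries butyrate there as an ester.

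Most proteins of this family hold a row of C2H2 zinc fingers, each of which folds around a zinc ion and reads a few bases of DNA. Many also carry a KRAB domain, which recruits the corepressor Trim28 and, through it, histone deacetylases and histone methyltransferases that lay down heterochromatin, often at transposable elements. Other members act as activators, in RNA processing, on ribosomes or on the mitotic spindle. KRAB genes tend to lie in clusters that arose by duplication, so neighbouring members can be close relatives, and cross-hybridisation between them was not tested.

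Promoter sequences are shown for 4 of the members called in the comparisons below. Each is the 250 bases before the annotated start, 5′ to 3′ on the strand of the gene, from RefSeq on the rat assembly GRCr8. Zfp266 and Zfp426 are neighbours that were both lower with butyrylated starch than with low-amylose maize starch, and they lie at chr8:27337540-27337789 and chr8:27305058-27305307, both on the minus strand. Zfp84 and Zfp566 were both lower with butyrylated than with plain high-amylose maize starch, and they lie at chr1:94114573-94114822 on the plus strand and chr1:94460666-94460915 on the minus strand. Capitals mark matches on either strand to the motifs searched, which were the CCAAT box CCAAT, the GC box GGGCGG, the ETS motif CCGGAAG, the cyclic AMP response element (CRE) TGACGTCA, the YY1 motif AAGATGGCG, the TATA box TATAAA and the longer motifs of NRF1 and ZNF143.
Zfp266: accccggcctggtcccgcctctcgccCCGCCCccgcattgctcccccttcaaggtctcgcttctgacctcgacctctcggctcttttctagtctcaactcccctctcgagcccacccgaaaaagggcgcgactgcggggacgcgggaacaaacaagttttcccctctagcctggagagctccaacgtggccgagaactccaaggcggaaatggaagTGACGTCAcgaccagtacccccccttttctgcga
Zfp426: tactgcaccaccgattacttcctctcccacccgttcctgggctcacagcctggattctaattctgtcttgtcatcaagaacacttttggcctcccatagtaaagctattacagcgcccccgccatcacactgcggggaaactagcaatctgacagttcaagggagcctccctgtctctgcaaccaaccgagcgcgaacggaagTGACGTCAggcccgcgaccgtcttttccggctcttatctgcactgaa
Zfp84: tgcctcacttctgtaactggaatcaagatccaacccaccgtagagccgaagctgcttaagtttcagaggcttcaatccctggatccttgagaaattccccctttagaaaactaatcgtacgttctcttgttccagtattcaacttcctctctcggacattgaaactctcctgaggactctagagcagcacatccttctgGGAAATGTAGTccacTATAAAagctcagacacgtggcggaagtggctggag
Zfp566: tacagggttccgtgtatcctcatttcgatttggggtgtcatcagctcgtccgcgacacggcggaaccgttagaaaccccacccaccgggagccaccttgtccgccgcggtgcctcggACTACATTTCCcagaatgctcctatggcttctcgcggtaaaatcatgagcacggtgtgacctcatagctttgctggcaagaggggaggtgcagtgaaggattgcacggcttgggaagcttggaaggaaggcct

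In these windows Zfp266 held a CRE and a GC box, and Zfp426 held a CRE. The CRE began 34 bases before the start in Zfp266 and 47 bases before it in Zfp426, and it formed the end of a run of 13 bases that both promoters share. Zfp84 held a ZNF143 match and a TATA box, and Zfp566 held a ZNF143 match in the opposite orientation. These promoters do not stand for all called members. Of the 11 members lower in HAMSB minus LAMS that have a promoter, 2 held a CRE, and these are the 2 shown. None of the 11 held a ZNF143 match. Of the 4 lower in HAMSB minus HAMS, 2 held a ZNF143 match, again the 2 shown. A promoter was found for 103 of the 122 members. A CRE was present in 4 of the 103 (3.88%), against 1.70% of 27457 rat promoters of the same length, and the other members with one were Zfp458 and Zfp593. The ZNF143 motif was in 12 members (11.7%, against 1.88% of all promoters), the ETS motif in 20.4% (against 7.74%), the GC box in 47.6% (against 32.4%), the NRF1 motif in 7.77% (against 4.17%) and the YY1 motif in 2.91% (against 0.736%). The CCAAT box was about as common as elsewhere (34.0% against 34.3%), and the TATA box was in 9.71% against 13.1%. Members' promoters had a median GC content of 57.6% and 14 CG pairs, against 52% and 6 for all promoters. The promoters set against those of the members were not limited to genes tested on the array, and shares over those genes were not counted. These are counts of letters, and the motifs were not tested for binding.

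The median of the members' means over all arrays was 6.38 on the log2 scale, on which the deposited values ran from 1.31 to 14.05. A probe set's level cannot be set against another probe set's, so the following values only place each gene above the floor. The mean was 8 or more for 7 members, among them Zfp207, a spindle assembly factor that binds the mitotic checkpoint protein Bub3 (8.78), Zfp598, the ubiquitin ligase that marks collided ribosomes (8.16), and Zfp217, which works with the histone demethylase Kdm1a and is amplified in breast cancer (8.27). It was under 6 for 48 members. Just inside the floor lay Zfp458, with a mean of 4.77, and just outside it lay Zfp879, with a median of 4.67. Of the 122 members, 117 had 1 probe set. Among the 5 with several, the second probe set of Zfp275 (mean 3.44) went against the first in HAMS minus LAMS, at -0.08 against 0.38. A further probe set of Zfp292 (mean 7.46) also went against the one used, at 0.11 against -0.13 in HAMS minus LAMS and at -0.17 against 0.06 in HAW minus HAMS.

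Several measures of the arrays differed between diets and bear on every comparison below. The array names are written in 3 styles, which the labels do not explain. All 8 HAMS arrays, 3 LAMS, 5 HAMSB, 1 LAW and 3 HAW arrays put the diet code first, 4 LAMS, 2 CON, 5 LAW and 5 HAW arrays are in lower case, and 4 HAMSB and 3 CON arrays put the number first. The spread of all values on an array, its interquartile range, was lower in HAMS than in LAMS by 0.20 (exact two-sided permutation test, p = 0.00435, 0.0174 adjusted over 4 tests), and higher in HAMSB than in HAMS by 0.12 (p = 0.0323, 0.0431 adjusted). A lymphoid level was taken as the mean of 8 genes, those tested among 17 B cell and germinal centre markers. Of the others, Ms4a1, Fcer2 and Cd72 lay under the floor, and 6 had no probe set of their own. Its median was 8.17 in HAMS (range 5.46 to 9.09) and 5.67 in HAMSB (range 5.49 to 8.06), and the medians of the other diets lay between 5.50 and 5.78. HAMSB minus HAMS was -1.39 (exact permutation p = 0.0287, 0.0431 adjusted), while HAMS minus LAMS was 1.15 (p = 0.122). Markers of colon epithelium (9.84 to 11.11) and of smooth muscle (11.37 to 12.43) were high on every array, as the tissue label has it. The means of other marker lists also differed between diets, and these differences were not tested. The mean of 6 fibroblast markers was 10.19 ± 0.16 (SD) in CON, 10.12 ± 0.25 in LAMS and 9.51 ± 0.37 in HAMS, that of smooth muscle 12.17 ± 0.25, 12.04 ± 0.19 and 11.77 ± 0.28, and that of enteric neurons and glia, 5 markers of 7 listed, 6.32 ± 0.13, 5.92 ± 0.24 and 5.74 ± 0.20. Over CON, LAMS and HAMS the means of Zfp219 and Zfp532 fell in the same order as fibroblast, smooth muscle, and neuron and glia markers alike. Zfp521 was likewise lower in LAMS than in CON. Over all 6 diets neither Zfp219 nor Zfp532 kept the order of any of these lists, and the part of these cell types was not tested. In such tissue, fewer cells of a type and less RNA per cell cannot be told apart.

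With diet in the model, name style went with 60 of the 122 members at an adjusted p under 0.05 (49.2%, against 42.7% of all genes tested). Arrays with lower-case names read higher than code-first arrays for 53 of these 60. Over all members the median difference was 0.21, with 95 of 122 above 0, against a median of 0.06 over all genes. Zfp292 differed by 0.96, Zfp347 by 0.84, Zfp638 by 0.83 and Zfp26 by 0.80, while Zfp703, an oncogene of luminal breast cancer, went the other way at -0.42. Array spread went with 57 members (46.7%, against 50.9%), 52 of them higher on arrays of wider spread. The lymphoid level went with 43 members (35.2%, against 53.4%). Of these, 35 were higher where the lymphoid level was higher (18.4% of all genes were) and 8 were lower (35% of all genes were). The slopes per log2 unit of lymphoid level reached 0.30 for Zfp202 and 0.21 for Zfp592, and the lowest were those of Zfp111 and Zfp532, both at -0.15.

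**Figure D1:**
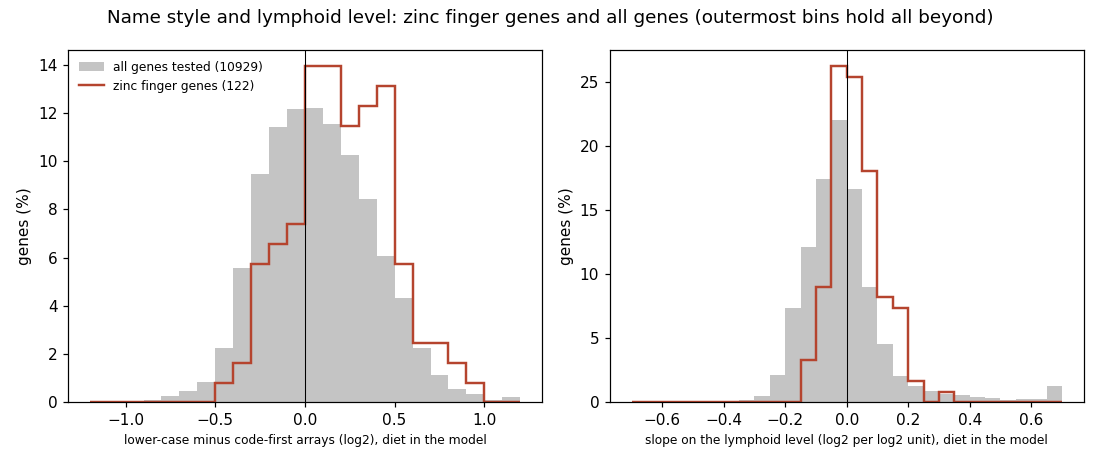
Distribution of the zinc finger genes (red line) and of all genes tested (grey) over 2 quantities fitted with diet in the model: the log2 difference of lower-case minus code-first arrays (left) and the slope on the lymphoid level (right). The members' difference by name style has a median of 0.21 against 0.06 for all genes; the vertical line marks 0.

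The means of the 6 diets differed for 31 of the 122 members in limma's F test (25.4%), against 30.7% of all genes tested. With name style as a block the count was 14 (11.5%), against 12.8% of all genes. The 12 with the smallest p were Zfp266, Zfp219, Zfp410, Zfp638, Zfp260, Zfp24, Zfp131, Zfp111, Zfp521, Zfp426, Zfp35 and Zfp532, with adjusted p from 0.00078 for Zfp266 to 0.0121 for Zfp532. The mean of a member was most often lowest in HAMSB (54 of the 122 members) or HAMS (30 of the 122). Over all genes HAMS held the lowest mean more often (40.2% of genes) than HAMSB (22.1%). The highest mean was most often in LAW (37 of the 122) or CON (33 of the 122). The matching shares over all genes were not counted, so these counts cannot be read as particular to the family. Most LAW arrays have lower-case names, on which most members read higher than on code-first arrays, and no HAMS or HAMSB array has one. Diet and name style cannot be told apart in these counts. Within diets the members had a median SD of 0.24, from 0.11 for Zfp513 to 0.48 for Zfp217. Over the 7381 pairs of members, the median correlation of their deviations from the diet means was 0.12 (5th to 95th percentile -0.39 to 0.64), and 0.07 with name style removed. Between members and other genes the median was 0.02 (5th to 95th percentile -0.47 to 0.56), and it was not taken with name style removed. All pairs share the same 43 arrays, so these correlations are a description only.

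Zfp266 had the smallest p in the family. Its levels were 7.35, 7.44, 7.50, 7.96 and 8.02 in CON, with a lowest, median and highest of 7.40, 7.91 and 8.15 in LAMS, 6.92, 7.39 and 7.52 in HAMS, 6.71, 7.25 and 7.38 in HAMSB, 7.57, 7.95 and 8.21 in LAW and 7.15, 7.72 and 7.97 in HAW. Every HAMSB rat lay below every LAMS rat, and HAMS rats overlapped only the low end of LAMS. Within LAMS the 3 code-first arrays read 7.40 to 7.59 and the 4 lower-case arrays 7.91 to 8.15, so the LAMS values themselves fall apart by name style. The 5 genes outside the family whose 6 diet means were most like those of Zfp266 were Tbc1d15 (Pearson r 0.999), Mphosph8 (0.998), Ankhd1 and Ascc3 (both 0.997) and Helz (0.996). With 6 means drawn from 10929 genes, such values are a description. Mphosph8 codes for a subunit of the HUSH complex, which silences transposable elements.

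**Figure D2:**
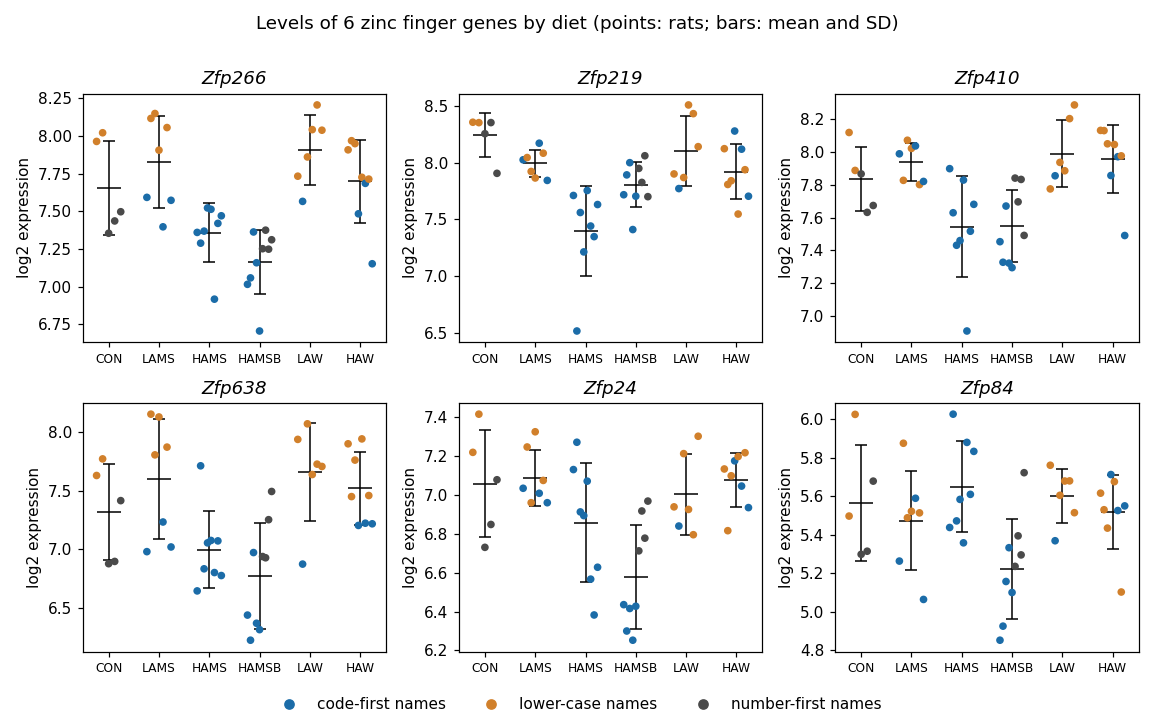
Log2 expression of 6 zinc finger genes (y axis) in each of the 43 rats by diet (x axis), coloured by the style of the array name, with the mean and SD of each diet in black. Zfp266 in HAMSB (6.71 to 7.38) lies wholly below LAMS (7.40 to 8.15), and within LAMS, LAW and HAW the lower-case arrays of Zfp266 lie above the code-first arrays.

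The comparison of LAMS with CON asks what the Western diet with low-amylose starch changed. No member passed with limma (0% of all genes did, and 0.329% with name style as a block), while 12 members and 938 of all genes had an unadjusted p under 0.05. All 5 members ranked first by p had a lower mean in LAMS than in CON. Zfp521, a factor of early haematopoietic and neural cells, read 6.03, 6.16, 6.19, 6.19 and 6.23 in CON against a lowest, median and highest of 5.44, 5.73 and 6.10 in LAMS. The groups overlapped only between 6.03 and 6.10, and the difference was -0.42 ± 0.12 (SE, adjusted p = 0.246). Zfp574 differed by -0.37 ± 0.11 (adjusted p = 0.246), Zfp652 by -0.36 ± 0.12 (0.273), Zfp710 by -0.30 ± 0.11 (0.330) and Zfp511 by -0.32 ± 0.12 (0.395). The median difference was -0.05 over the members and -0.04 over all genes.

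The comparison of HAMS with LAMS asks what high-amylose maize starch did. With diet alone in the model 7 members were lower and 1 higher in HAMS, which is 6.56% of the family against 14.1% of all genes (12% lower and 2.16% higher). The median difference was -0.07 over the members and -0.08 over all genes. Zfp219, a partner of Sox9 in cartilage cells, had the smallest p. Its levels had a lowest, median and highest of 7.84, 8.02 and 8.17 in LAMS and 6.52, 7.50 and 7.75 in HAMS, so the groups did not overlap. The CON values were 7.91, 8.25, 8.35, 8.35 and 8.36, and the other ranges were 7.41 to 8.06 in HAMSB, 7.77 to 8.51 in LAW and 7.55 to 8.28 in HAW. The difference was -0.60 ± 0.13 (adjusted p = 0.00818), and -0.58 (adjusted p = 0.0189) with name style as a block. The call ended with array spread as a covariate (-0.53, adjusted p = 0.105), with name style and lymphoid level together (-0.34, 0.187) and on code-first arrays alone (-0.62, 0.0540).

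Zfp638, which binds cytidine-rich DNA and silences unintegrated retroviral DNA together with the HUSH complex, was lower by 0.60 (-0.60 ± 0.20, adjusted p = 0.0415). Its values in LAMS were 6.98 to 7.23 on the 3 code-first arrays and 7.81 to 8.15 on the 4 lower-case arrays, against 6.64 to 7.71 in HAMS, where all arrays are code-first. Zfp266 was lower at -0.47 ± 0.13 (adjusted p = 0.0181). Zfp410, known as the activator of the gene for the chromatin remodeller Chd4, was lower at -0.39 ± 0.11 (adjusted p = 0.0227; lowest, median and highest 7.80, 7.99 and 8.07 in LAMS and 6.91, 7.57 and 7.90 in HAMS). Zfp260, a partner of Gata4 in heart muscle cells, was lower at -0.47 ± 0.15 (0.0381), Zfp35 at -0.40 ± 0.13 (0.0361) and Zfp422, also called Krox-26, at -0.39 ± 0.13 (0.0385). Zfp689 was higher at 0.26 ± 0.08 (adjusted p = 0.0240; lowest, median and highest 5.69, 5.81 and 6.14 in LAMS and 5.76, 6.14 and 6.35 in HAMS).

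With name style as a block the count for HAMS minus LAMS was 5, 1 lower and 4 higher (8.67% of all genes, 6.3% lower and 2.38% higher). Only Zfp219 and Zfp689 were called in both fits, and Zfp46, Zfp180 and Zfp652 were called with the block alone. Array spread differed between these diets, and with it as a covariate no member passed (Zfp266 -0.21, adjusted p = 0.302, and Zfp410 -0.18, 0.332). Centring each array on its median turned the split to 2 lower and 5 higher. Leaving out 1 array moved the count by over 1.5 times for 9 arrays: without LAMS replicate 1, 2, 3 or 6 it was 15, 4, 3 and 4, without HAMS replicate 4, 5, 6 or 8 it was 4, 15, 1 and 4, and without HAW replicate 8 it was 14.

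The comparison of HAMSB with LAMS covers both the amylose of the starch and the esterified butyrate, and it cannot separate them. It shares the LAMS arrays with the comparison above. In HAMSB 12 members were lower and 1 higher, which is 10.7% of the family against 6.74% of all genes (4.57% lower and 2.17% higher). The median difference was -0.10 over the members, with 81 of 122 below 0, and 0.01 over all genes. Zfp638 fell by 0.83 (-0.83 ± 0.20, adjusted p = 0.0134). Its lowest, median and highest were 6.98, 7.81 and 8.15 in LAMS and 6.22, 6.93 and 7.49 in HAMSB. The 5 code-first HAMSB arrays reached up to 6.97, and the 3 code-first LAMS arrays began at 6.98. Zfp26 was lower at -0.75 ± 0.19 (adjusted p = 0.0186; 6.05, 6.90 and 7.27 in LAMS against 5.48, 6.00 and 6.26 in HAMSB). Zfp266 was lower at -0.66 ± 0.13 (adjusted p = 0.00474), with no overlap between the groups.

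Zfp24, a SCAN-domain factor needed by myelin-forming cells, had the second smallest adjusted p among the members in this comparison, at -0.51 ± 0.12 (adjusted p = 0.0123). Its lowest, median and highest were 6.96, 7.03 and 7.33 in LAMS and 6.25, 6.44 and 6.97 in HAMSB. The 5 code-first HAMSB arrays were the lowest, at 6.25 to 6.44, and the 4 number-first arrays lay from 6.71 to 6.97. The other falls were those of Zfp868 (-0.61 ± 0.19, adjusted p = 0.0445), Zfp131, a BTB-domain factor that pairs with Kaiso (-0.59 ± 0.16, 0.0208), Zfp40 (-0.57 ± 0.16, 0.0271), Zfp260 (-0.50 ± 0.15, 0.0397), Zfp35 (-0.46 ± 0.13, 0.0264), Zfp426 (-0.44 ± 0.14, 0.0462), Zfp410 (-0.39 ± 0.11, 0.0306) and Zfp330, a nucleolar protein (-0.37 ± 0.11, 0.0369). The member that rose was Zfp513, a gene of inherited retinal degeneration, at 0.23 ± 0.07 (adjusted p = 0.0324; 6.90, 7.13 and 7.20 in LAMS against 7.19, 7.34 and 7.39 in HAMSB).

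With name style as a block 5 members passed in HAMSB minus LAMS, 3 lower and 2 higher (2.99% of all genes, 1.62% lower and 1.37% higher), and the members' median was -0.00. Zfp266 (-0.43, adjusted p = 0.0180), Zfp638 (-0.59, 0.0285) and Zfp24 (-0.48, 0.0298) were called in both fits, and Zfp395 and Zfp598 with the block alone. On the 3 LAMS and 5 HAMSB arrays with code-first names, Zfp266 differed by -0.46 (adjusted p = 0.159) and Zfp638 by -0.61 (0.131), and no member passed. Centring each array gave 13 lower and 4 higher. Leaving out 1 array moved the count by over 1.5 times for 11 arrays: without LAMS replicate 1, 2, 3, 4, 6 or 7 it was 27, 2, 4, 3, 6 and 20, and without HAMSB replicate 1, 2, 4, 5 or 9 it was 6, 5, 8, 3 and 26.

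**Figure D3:**
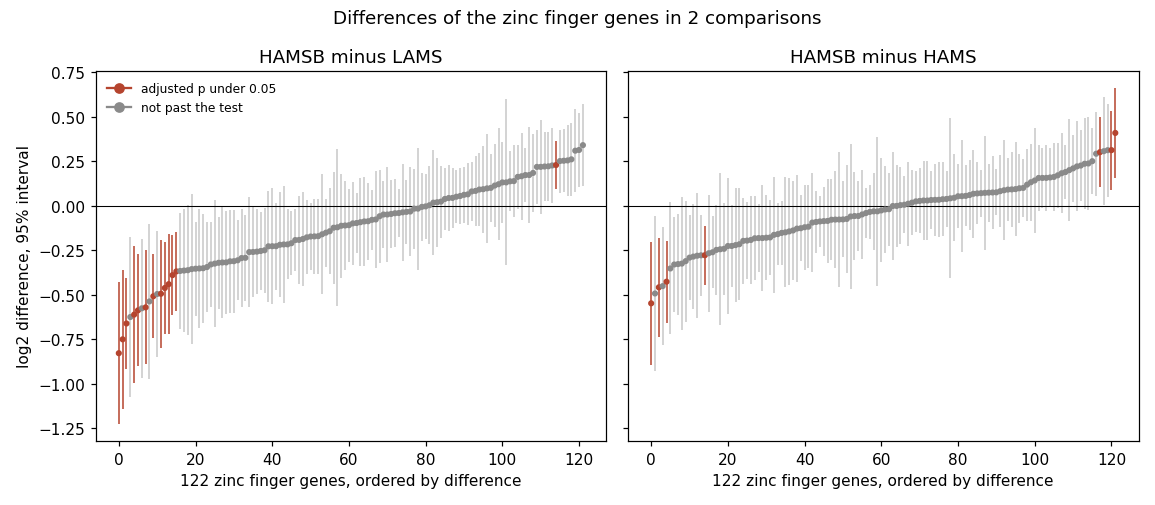
Log2 differences of the 122 zinc finger genes (y axis, with 95% intervals), each panel ordered from lowest to highest, with the genes past limma's adjusted p of 0.05 in red. In HAMSB minus LAMS (left) 81 of 122 lie below 0 and 13 are called, and in HAMSB minus HAMS (right) 7 are called.

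The comparison of HAMSB with HAMS sets starches that differ in the butyryl group against each other. In HAMSB 4 members were lower and 3 higher, which is 5.74% of the family against 16.7% of all genes (14.2% higher and 2.48% lower). The median difference was -0.02 over the members and 0.07 over all genes. Zfp84 had the smallest p, with a lowest, median and highest of 5.36, 5.60 and 6.03 in HAMS and 4.85, 5.24 and 5.72 in HAMSB. The groups overlapped in the middle, and the lowest HAMSB values were on code-first arrays (4.85 to 5.33), the style of every HAMS array. The difference was -0.43 ± 0.11 (adjusted p = 0.0107), and -0.58 (adjusted p = 0.00611) on code-first arrays alone.

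Zfp566 was lower in HAMSB at -0.46 ± 0.14 (adjusted p = 0.0206; 5.47, 5.79 and 6.10 in HAMS against 4.93, 5.24 and 6.07 in HAMSB). Zfp472 was lower at -0.55 ± 0.17 (0.0250; 4.85, 5.36 and 5.95 against 4.41, 4.91 and 5.14) and Zfp821 at -0.28 ± 0.08 (0.0197). Zfp219 was higher at 0.41 ± 0.13 (0.0237), Zfp575 at 0.31 ± 0.11 (0.0445; 4.88, 5.05 and 5.50 in HAMS against 5.20, 5.35 and 5.62 in HAMSB) and Zfp672 at 0.30 ± 0.10 (0.0293). These 7 were also called, in the same direction, with name style as a block. The block raised the count to 24, 17 lower and 7 higher (30.5% of all genes, 11.1% lower and 19.4% higher), which is 19.7% of the family. The genes added include Zfp292, Zfp24, Zfp26, Zfp266 and Zfp638. Of the 7, Zfp84, Zfp566, Zfp472, Zfp821, Zfp575 and Zfp672 also passed on code-first arrays alone, and Zfp219 did not (0.35, adjusted p = 0.142).

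The lymphoid level moved with this comparison. With it as a covariate no member passed, and the differences were -0.29 for Zfp84 (adjusted p = 0.130), -0.26 for Zfp566 (0.246), -0.27 for Zfp472 (0.307), -0.22 for Zfp821 (0.163), 0.23 for Zfp219 (0.282), 0.27 for Zfp575 (0.225) and 0.27 for Zfp672 (0.145). Within diets, Zfp472 (slope 0.20), Zfp566 (0.14) and Zfp84 (0.10) were higher, and Zfp219 was lower (-0.13), where the lymphoid level was higher, all at an adjusted p under 0.05. For Zfp821 (0.04, adjusted p = 0.0961), Zfp575 (-0.03, 0.337) and Zfp672 (-0.02, 0.529) the slope did not pass. The part of lymphoid cells in these differences was not tested further. Centring each array gave 13 lower and 0 higher. The count was 2 without HAMS replicate 2, 3 without HAMS replicate 4, and 14 without HAMS replicate 5 or without HAMSB replicate 9.

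**Figure D4:**
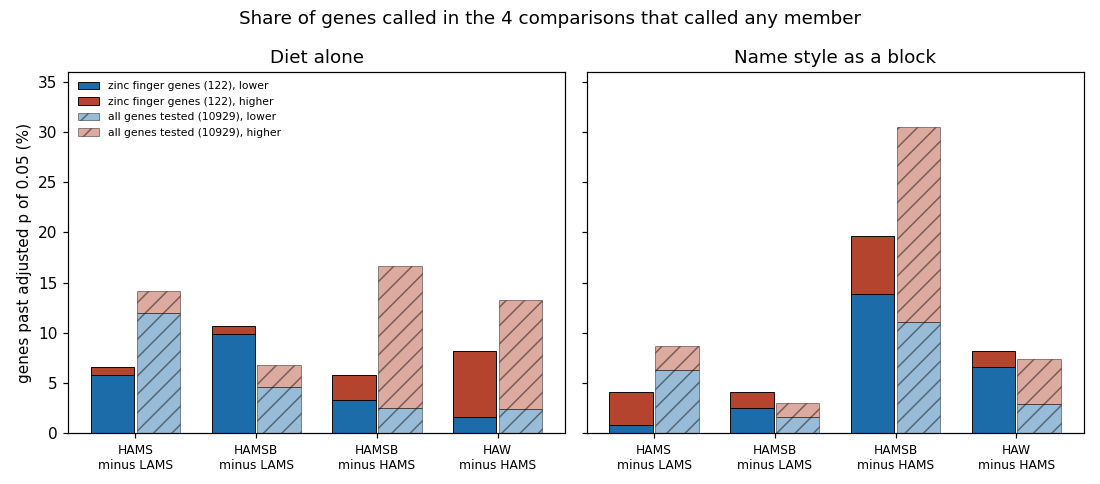
Share of genes past limma's adjusted p of 0.05 (y axis, percent) in 4 comparisons, for the 122 zinc finger genes (solid bars) and all 10929 genes tested (hatched bars), lower calls in blue and higher calls in red. With diet alone (left) the members' share, both directions summed, exceeds that of all genes only in HAMSB minus LAMS (10.7% against 6.74%), and with name style as a block (right) the split of HAMS minus LAMS and HAW minus HAMS turns.

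In wheat the same question was asked by HAW minus LAW. No member and no other gene passed with limma (0% of all genes), and 4 members and 211 genes had an unadjusted p under 0.05. The median was -0.06 over the members, with 95 of 122 below 0, and -0.02 over all genes. The name-style block gave -0.03, with 78 of 122 below 0. The smallest p belonged to Zfp692 (-0.23 ± 0.09), Zfp865 (0.35 ± 0.14), Zfp395 (-0.22 ± 0.09), Zfp821 (-0.20 ± 0.09) and Zfp317 (-0.26 ± 0.13), all with an adjusted p of 1.00. The difference between the amylose effects of the grains, wheat minus maize, was tested as an interaction. No member passed, against 0.0274% of all genes (0.00915% higher and 0.0183% lower, and 0.457% in all with name style as a block), and 14 members and 1674 genes had an unadjusted p under 0.05. Zfp689 had the smallest p, at -0.38 ± 0.11 (adjusted p = 0.174), followed by Zfp395 (-0.41 ± 0.13, 0.176), Zfp35 (0.47 ± 0.19, 0.250), Zfp672 (0.36 ± 0.15, 0.263) and Zfp513 (-0.22 ± 0.10, 0.289). The median 95% interval of a member reached 0.36 to either side in this comparison and 0.25 in HAMS minus LAMS.

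The grains at low amylose, LAW minus LAMS, gave no call (0% of all genes), and 2 members and 192 genes had an unadjusted p under 0.05. The members with the smallest p were Zfp395 (0.26 ± 0.10), Zfp282 (0.21 ± 0.10), Zfp652 (0.21 ± 0.11), Zfp37 (-0.33 ± 0.18) and Zfp394 (0.18 ± 0.10), all at an adjusted p of 1.00. The grains at high amylose, HAW minus HAMS, gave 8 higher and 2 lower members, which is 8.2% of the family against 13.3% of all genes (10.9% higher and 2.39% lower). This comparison shares the HAMS arrays with those of maize starch. Zfp219 was higher in HAW at 0.52 ± 0.13 (adjusted p = 0.0117), Zfp111 at 0.50 ± 0.14 (0.0218), Zfp612 at 0.47 ± 0.15 (0.0299), Zfp131 at 0.45 ± 0.15 (0.0483), Zfp410 at 0.41 ± 0.11 (0.0164), Zfp422 at 0.36 ± 0.12 (0.0486), Zfp672 at 0.34 ± 0.10 (0.0222) and Zfp9 at 0.34 ± 0.09 (0.0175). Zfp819 was lower at -0.44 ± 0.14 (0.0399; 4.67, 5.12 and 5.84 in HAMS against 4.43, 4.65 and 5.01 in HAW) and Zfp689 at -0.23 ± 0.07 (0.0355).

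With name style as a block 10 members passed in HAW minus HAMS, but 8 of them were lower and 2 higher (7.39% of all genes, 2.94% lower and 4.46% higher), and only Zfp219, Zfp689 and Zfp9 were called in both fits. With array spread as a covariate no member passed (Zfp219 0.46, adjusted p = 0.101, and Zfp410 0.23, 0.195), and with lymphoid level 3 did. Centring gave 6 lower and 2 higher, and on code-first arrays alone no member passed. Leaving out 1 array moved the count by over 1.5 times for 9 arrays: without HAMS replicate 4, 6, 7 or 8 it was 4, 3, 5 and 5, and without HAW replicate 1, 2, 3, 7 or 8 it was 4, 3, 3, 6 and 22.

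By role, 8 of 10 listed members that act on RNA, ribosomes or the spindle were tested. With diet alone, 1 of the 8 passed in HAMS minus LAMS and in HAMSB minus LAMS, Zfp638 (12.5%, against 14.1% and 6.74% of all genes), and in the other comparisons none did. The role given above for Zfp638, the silencing of retroviral DNA, is not one of those that name this list. Under the block, Zfp638 was at -0.13 (adjusted p = 0.579) in HAMS minus LAMS. In HAMSB minus LAMS Zfp598 was then higher (0.42, adjusted p = 0.0234) and Zfp638 lower (-0.59, 0.0285), where 2.99% of all genes passed. Zfp207 and Zfp638 were lower in HAMSB minus HAMS (-0.34 and -0.45), where 30.5% of all genes passed. Zfp207 was lower in HAW minus HAMS (-0.29), where 7.39% did. Their median difference was -0.08 in HAMS minus LAMS and -0.13 in HAMSB minus LAMS. Zfp598 and Zfp207 differed by 0.25 and -0.29 in HAMSB minus LAMS, and the ribosome assembly factors Zfp622 and Zfp593 by -0.00 and 0.16 with diet alone, none of them past that test. Of 21 listed members with a described role as transcription or chromatin regulators, 14 were tested. The list was meant to lie outside the KRAB group, but members were not classed by domain. Zfp219, Zfp24, Zfp131 and Zfp260, which were called above, are not on this list. With diet alone only Zfp410 of the 14 passed, in HAMS minus LAMS, HAMSB minus LAMS and HAW minus HAMS (7.14% in each, against 14.1%, 6.74% and 13.3% of all genes). Under the block it passed in none of these (adjusted p = 0.122, 0.103 and 0.110). The block instead called Zfp148, Zfp263, Zfp281 and Zfp292 lower and Zfp423 and Zfp703 higher in HAMSB minus HAMS. In that fit 11.1% of all genes were lower and 19.4% higher. Zfp292 and Zfp384 were lower in HAW minus HAMS, where 2.94% of all genes were lower and 4.46% higher. Zfp292, a large protein expressed in the growth hormone lineage, differed by -0.63 in HAMSB minus LAMS with diet alone (adjusted p = 0.0726) with a wide scatter in LAMS (7.70 to 9.35). Zfp532 was lowest in HAMS, with a mean of 6.74 ± 0.31 (SD, n = 8), and highest in CON, with 7.47 ± 0.18 (n = 5).

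The partners of KRAB zinc fingers were read from a list of 33 corepressor and heterochromatin genes, of which 25 were tested. In HAMS minus LAMS 4 were lower (16%, close to the 14.1% of all genes called, 12% lower): the histone deacetylases Hdac1 (-0.48 ± 0.13, adjusted p = 0.0164) and Hdac2 (-0.46 ± 0.15, 0.0406), the histone methyltransferase Ehmt1 (-0.36 ± 0.08, 0.00939) and the demethylase Kdm1a (-0.27 ± 0.09, 0.0334). None of these 4 passed with name style as a block. In HAMSB minus LAMS 2 ATPases of heterochromatin were lower (8%, against 6.74% of all genes), Morc3 (-0.62 ± 0.19, 0.0388) and Morc2 (-0.48 ± 0.13, 0.0283). Neither passed with the block. In HAMSB minus HAMS the methyltransferase Suv39h1 alone was lower (-0.28 ± 0.10, 0.0452), which is 4% of the partners against 16.7% of all genes. In HAW minus HAMS Hdac1, Ehmt1 and Kdm1a were higher by 0.44, 0.33 and 0.25, which is 12% against 13.3%. With the block 8 of the 25 were lower and 1 higher in HAMSB minus HAMS, Suv39h1 and Morc3 among the lower. That fit called 30.5% of all genes (11.1% lower and 19.4% higher). In HAW minus HAMS the block gave 0 higher and 2 lower, so none of the 3 higher calls held. There 7.39% of all genes were called (2.94% lower and 4.46% higher). Trim28 itself passed in no comparison, with means from 10.02 in HAMS to 10.25 in LAW. The related Zbtb, Zscan and Zkscan genes, 39 tested, had 5 lower in HAMS minus LAMS (12.8%, against 14.1% of all genes) and 3 lower and 1 higher in HAMSB minus LAMS (10.3%, against 6.74%). The block turned these to 1 lower and 3 higher, and 0 lower and 1 higher, where it called 8.67% and 2.99% of all genes.

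By gene order in RefSeq, 50 of the 122 members lie beside a gene named Zfp or Znf, and 22 lie beside another member. Of the 12 members lower in HAMSB minus LAMS, 5 lie beside another of the 12: Zfp26, Zfp426 and Zfp266 follow each other, and Zfp24 and Zfp35 are neighbours. Their differences were -0.75, -0.44 and -0.66 for the first group and -0.51 and -0.46 for the second. Under the block only Zfp266 and Zfp24 of these 5 passed (adjusted p = 0.0180 and 0.0298, against 0.0647 for Zfp26, 0.283 for Zfp426 and 0.188 for Zfp35), so no called neighbours remained among them. In HAMSB minus HAMS the same 5 differed by -0.33, -0.08, -0.19, -0.28 and -0.06, and none passed with diet alone, while Zfp26 (-0.52, adjusted p = 0.00766), Zfp266 (-0.25, 0.0412) and Zfp24 (-0.39, 0.0149) passed with the block. With diet alone no called members were neighbours in HAMS minus LAMS, HAMSB minus HAMS or HAW minus HAMS. Zfp846, on the other side of Zfp266, was not called in HAMSB minus LAMS (-0.29, adjusted p = 0.165). How often called genes lie side by side was not counted over all genes.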

How the data were processed

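The 43 arrays were grouped by the diet in their labels. The authors deposited log2 values of 29214 probe sets. The submitters' processing notes name RMA, with no version, as the tool behind them. Of the probe sets, 15310 were paired with 1 symbol, 323 with several and 13581 with none in GEO's platform annotation, and 14506 symbols resulted. The probe set with the highest mean stood for a symbol, and a gene was kept at a median of 4.75 or more, the 25th percentile. Arrays carry no read depth, and their number limits the precision.

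The model, fitted in R 4.3.3 by limma 3.58.1 (lmFit, then eBayes), had a mean per diet, 8 comparisons and an F test. Tests were two-sided, with Benjamini-Hochberg adjustment over all 10929 genes and a threshold of 0.05. The fit was tested on simulated data. Nothing in the labels ties rats to litters or cages, and p-values measure the spread between these arrays. Name style, array spread and lymphoid level were also fitted as terms. Named genes were the 6 largest rises and falls per comparison, or the 5 smallest p where under 5 passed, the 12 smallest p of the F test, and members of the role lists. Zfp330, Zfp9 and the members that only the block called were named after their values were seen, as were Zfp422 and Zfp672 in 1 comparison each and the examples of name style and lymphoid level. The members and lists were chosen with earlier results of these data known. Replicate numbers did not pair arrays: the 94 same-numbered pairs had a median correlation of -0.05, and 37 exceeded 0.1. The highest correlation between 2 arrays was 0.991, and no array was taken as a duplicate. Plots used Python 3.11.15 and matplotlib 3.10.9.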

Additional observations from a re-analysis of the deposited data

Results flagged for a closer look

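For the 37 genes named and 2 measures of the arrays, the values of each diet were searched for an array that stood apart from the rest of its diet, by the gap to its nearest neighbour over the whole range. This marked 19 of 234 groups of values, and chance marks about 1 in 20.

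The array of CON replicate 5 had a lymphoid level of 7.97, with the next at 5.89, and it also read low for Zfp219 (7.91, next 8.25) and Zfp532 (7.16, next 7.50). The array of HAMS replicate 2 read low for Zfp219 (6.52, next 7.21) and Zfp532 (6.06, next 6.62) and high for Zfp638 (7.71, next 7.07). Without it, the count of members called in HAMSB minus HAMS was 2 in place of 7.

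The array of HAMS replicate 6 was low for Zfp266 (6.92, next 7.29) and Zfp410 (6.91, next 7.43). The array of HAW replicate 8 had the lowest spread of its diet (2.68, next 3.12) and was low for Zfp410 (7.49, next 7.86). Without the first of these, 1 member passed in HAMS minus LAMS in place of 8, and without the second, 22 passed in HAW minus HAMS in place of 10.

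The array of LAW replicate 2, the only LAW array with a code-first name, was low for Zfp638 (6.87, next 7.64), Zfp821 (6.41, next 6.71) and Zfp472 (4.37, next 4.98). Among the other groups, LAMS replicate 5 was high for Zfp574 (7.21, next 6.95) and LAMS replicate 2 for Zfp821 (6.86, next 6.64). HAW replicate 7 was low for Zfp84 (5.10, next 5.43). Zfp865 was high in CON replicate 2 (6.36, next 5.94) and in HAMSB replicate 2 (6.45, next 6.06). HAMSB replicate 5 had the lowest spread of its diet, 2.95 against 3.07.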

How the results depend on the processing

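Counts of zinc finger genes past the threshold stayed within 1.5 times of the reported ones with all probe sets averaged, a trended and robust prior, no filter on low signal or the range of animal numbers as a block. For the F test, against 31, the count was 19 with the stricter filter (56 members), 77 with array weights, 14 with name style as a block, 11 with array spread as a covariate and 3 with name style and lymphoid level together. In HAMS minus LAMS, against 8, it was 33 with array weights, 5 with name style, 5 with lymphoid level, 0 with array spread, 0 with name style and lymphoid level, 2 in a fit of only these diets, 3 on code-first arrays and 3 without the 2 arrays of lowest spread. In HAMSB minus LAMS, against 13, it was 8 with the stricter filter, 59 with array weights, 5 with name style, 22 with lymphoid level, 7 with both and 0 on code-first arrays. In HAMSB minus HAMS, against 7, it was 4 with the stricter filter, 21 with array weights, 13 with centred arrays, 24 with name style, 0 with lymphoid level, 1 with both, 21 with array spread and 18 on code-first arrays. In HAW minus HAMS, against 10, it was 5 with the stricter filter, 32 with array weights, 3 with lymphoid level, 0 with array spread, 0 with name style and lymphoid level, 0 in a fit of only these diets and 0 on code-first arrays. Array weights gave 3 members in LAMS minus CON and 7 in the interaction of grain and amylose. In those 2 comparisons, HAW minus LAW and LAW minus LAMS, every other alternative gave 0.

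The stricter filter left 22 members that follow the lymphoid level, 30 that follow the array spread and 30 that follow the name style. Members that follow the array spread numbered 37 with centred arrays and 21 with name style as a block. Zfp422 in HAW minus HAMS turned to -0.038 (adjusted p = 0.931) with name style and lymphoid level together. With the replicate number as a block (replicate block), 1 member passed in HAMS minus LAMS, 16 in HAMSB minus LAMS, 10 for HAMSB minus HAMS and 6 for HAW minus HAMS, and 21 in the F test. The numbers do not pair the arrays, since 4 of 43 arrays correlated best with an array of their own number. Leaving out each array in turn gave 23 to 43 members in the F test, 1 to 15 in HAMS minus LAMS, 2 to 27 in HAMSB minus LAMS, 2 to 14 for HAMSB minus HAMS and 3 to 22 for HAW minus HAMS. It gave 38 to 53 members that follow the lymphoid level, 52 to 61 the array spread and 54 to 64 the name style. The smaller sets tested under the stricter filter and on code-first arrays have fewer members or arrays, and the cause of the other moves was not tested. The fits limited to 1 name style, and that without 2 arrays, were added after seeing the data. Precision is set by how many arrays there are, and for the dimmest members by the background.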
